A study of Mus musculus with 4 samples.

Results

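The genes described here are Cish, Socs1 to Socs7, Pim1 and Pim2, a set of genes that respond to cytokines, in CD8+ T cells made in culture and in CD8+ cells taken from the thymus. The genes were picked with earlier results of these data known, and their probes were then taken by name: every non-control probe whose gene name in the scanner files was one of these symbols, which gave 18 of 41174 probes and 10 of 27962 gene names. Both kinds of cells were of C57Bl/6 strain. The in vitro-derived cells grew from 100000 sorted bone marrow progenitors (Lin-Sca1+CD117+) of mice aged 6 to 8 weeks, kept for 35 days on OP9-DL1, a stromal line that presents a Notch ligand, with 5 ng/ml Flt3 and 1 ng/ml IL7 in the medium. The thymic cells came from mice aged 4 to 5 weeks. Both kinds were sorted as CD8+ cells with high TCR beta, neither received a further treatment, and 1 ug of total RNA of each prep was amplified and labelled. Each kind gave 2 RNA preps, and each of these met both preps of the other kind on 2-colour Agilent arrays, 4 arrays in all. Array 1 carried in vitro prep 1 and thymic prep 1, array 2 in vitro prep 2 and thymic prep 1, array 3 in vitro prep 1 and thymic prep 2, and array 4 in vitro prep 2 and thymic prep 2.

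Cytokines of the type bound by these cells act through receptors that hold Jak kinases, and the kinases activate STAT transcription factors by phosphorylation. Cish and the Socs genes encode proteins that damp this signal: an SH2 domain binds the activated receptor or kinase, and a SOCS box brings in a ubiquitin ligase. Several of them are themselves switched on by STATs, so they form a feedback loop. The Pim genes encode serine/threonine kinases that promote survival and growth, whose amount is set largely by transcription and is raised by STAT5. In the thymus Socs1 is known to restrain the response of developing T cells to IL-7 and related cytokines.

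STATs bind DNA at a short palindrome, and the promoters of the members were searched for TTCNNNGAA, which has a spacer of 3 bases, and for the same palindrome with a spacer of 4 bases. Each motif is its own reverse complement, so a search of either strand covers both, and in the members no match overlapped another. RefSeq (GRCm38.p6) promoter windows of 300 bases, 250 before and 50 after the gene start, were matched for 6 of the 10 members, with 2 windows for Pim1 and 7 windows in all. Socs2, Socs5, Socs6 and Socs7 were not matched. The promoters of Cish (chr9:107296409-107296708, plus strand) and Socs3 (chr11:117969317-117969616, minus strand) are shown because they held TTCNNNGAA, and that of Socs1 (chr16:10785487-10785786, minus strand) because it held neither form. They are written 5' to 3' on the strand of the gene, with the motif in capitals.
Cish: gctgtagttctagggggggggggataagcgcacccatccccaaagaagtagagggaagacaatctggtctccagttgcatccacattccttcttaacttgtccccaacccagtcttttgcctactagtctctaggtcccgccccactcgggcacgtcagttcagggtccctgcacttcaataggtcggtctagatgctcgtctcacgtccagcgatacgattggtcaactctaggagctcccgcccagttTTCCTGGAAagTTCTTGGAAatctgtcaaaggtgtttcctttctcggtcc
Socs3: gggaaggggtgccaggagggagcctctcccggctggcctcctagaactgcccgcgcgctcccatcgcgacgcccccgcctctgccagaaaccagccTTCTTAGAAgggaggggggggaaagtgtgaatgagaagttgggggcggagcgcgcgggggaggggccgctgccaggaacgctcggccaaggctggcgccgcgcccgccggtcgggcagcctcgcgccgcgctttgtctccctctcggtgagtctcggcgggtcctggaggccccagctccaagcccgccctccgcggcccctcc
Socs1: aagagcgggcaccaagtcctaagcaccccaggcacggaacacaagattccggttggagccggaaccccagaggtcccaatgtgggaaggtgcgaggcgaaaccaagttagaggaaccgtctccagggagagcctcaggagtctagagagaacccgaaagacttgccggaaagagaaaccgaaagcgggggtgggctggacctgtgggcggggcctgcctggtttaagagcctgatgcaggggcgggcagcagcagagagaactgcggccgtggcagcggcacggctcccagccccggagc
Cish held 2 copies, TTCCTGGAA at bases 1 to 9 and TTCTTGGAA at bases 12 to 20 counted from the gene start, and Socs3 held 1 copy, TTCTTAGAA, at -154 to -146. The windows of Socs1, Socs4, Pim1 and Pim2 held 0 copies, and the form with the longer spacer was in 0 of the 7 windows. Among all 32851 promoter windows of the same length, 8.30% held TTCNNNGAA at least once, 0.457% held 2 or more copies and 6.95% held the form with the longer spacer. A match describes the letters of these windows and was not measured as a bound site.

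Of the 18 member probes, 16 were bright enough to be tested, meaning that at least 1 channel was well above background, as the scanner software calls it, on each of the 4 arrays. Socs2 was the member with the highest difference, at 6.99-fold higher in in vitro-derived cells, and Cish the lowest, 2.81-fold lower. Socs1, Socs4, Socs6 and Socs7 were also higher, as was a Pim1 probe that the array design places on the strand opposite to Pim1. Socs5 and Pim2 were lower. Socs3, the Pim1 probe for the coding transcript and 1 of the Socs6 probes did not pass the test. In all, 13 of the 16 tested probes were called at an adjusted p under 0.05 (limma, Benjamini-Hochberg over 27224 probes), 9 of them higher and 4 lower. That is a frequent outcome here: 52.2% of all tested probes were called, 26.6% higher and 25.6% lower. The levels of the preps did not overlap between the kinds for 14 of the 16 probes, against 77.3% of all tested probes, and 2 of the 16 (12.5%) were called with at least a 2-fold difference, against 10.5%. The median log2 difference, in vitro-derived minus thymic, was 0.38 over the 16 member probes and 0.03 over all tested probes, and the median size of the difference was 0.58 and 0.26. Socs4 and Socs6 each add 3 tested probes to the member median. With 1 probe per gene the median difference was 0.12 over the 10 members and 0.03 over all genes, and with each gene's tested probes averaged it was 0.24 and 0.03.

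All arrays carried the in vitro-derived RNA in Cy5 and the thymic RNA in Cy3, so an effect of dye on a probe, and of donor age, cannot be told apart from the kind of cell. In bulk RNA such as this, fewer cells of a type and less RNA per cell cannot be told apart either. An exact permutation test on 1 probe, with 2 preps against 2, has 0.333 as its smallest p, so the calls rest on a variance estimated over all probes, and the labels name no separate animals behind the preps. Across the arrays, 66.5% to 70.9% of the 43379 spots that were not controls were well above background in the in vitro-derived channel, against 63.7% to 65.6% in the thymic channel. Marker genes of stromal cells were higher in in vitro-derived cells in the same comparison (6 of 8 tested, median 2.92), and those of CD8 T cells were lower (5 of 6), and their part in the results on the members was not tested. The arrays share 1 slide and 1 scan, and no spot of a member was saturated.

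**Figure D1:**
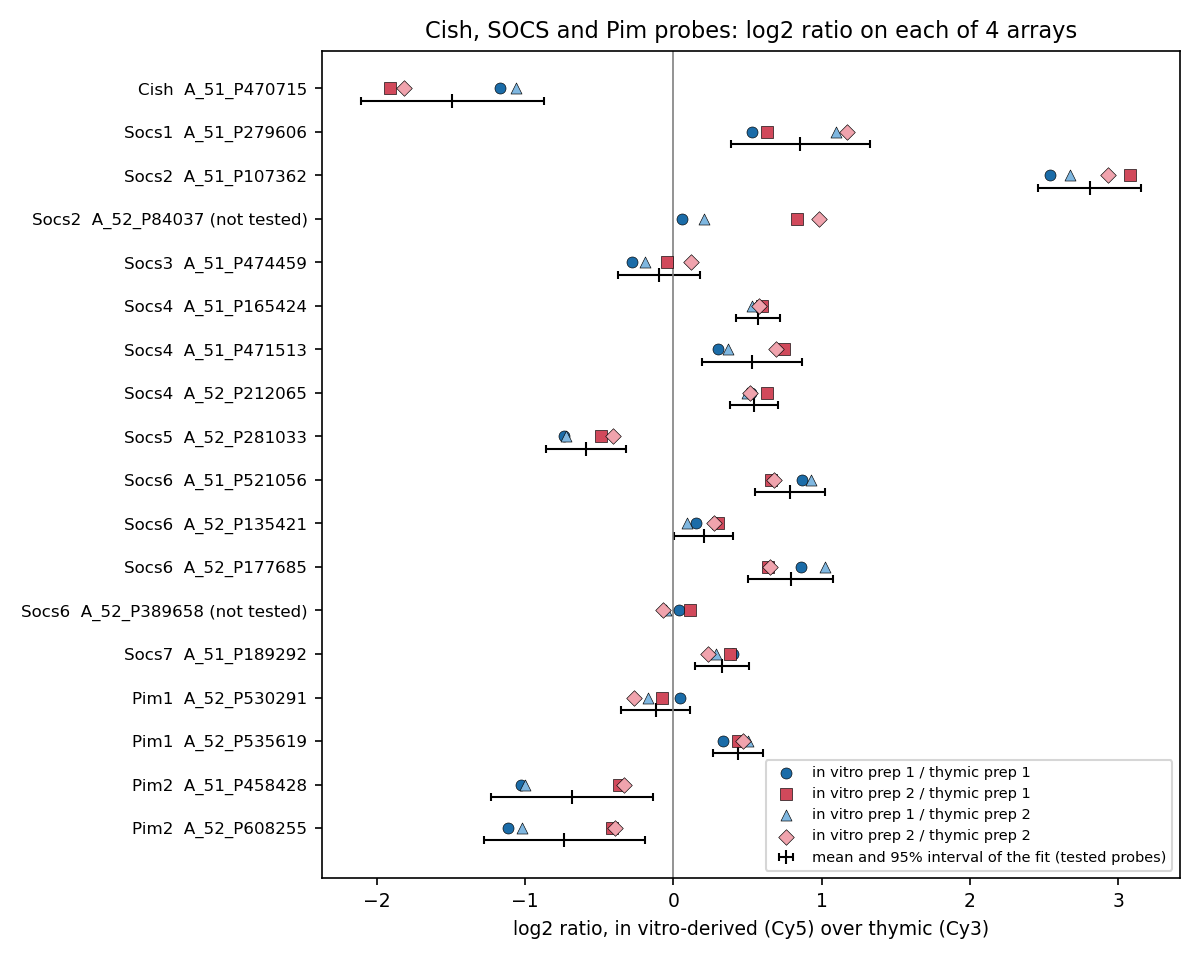
Log2 ratio of in vitro-derived over thymic signal (horizontal axis) for each member probe (vertical axis), 1 marker per array as in the legend, with the mean and 95% interval of the fit below the markers of each tested probe. Socs2 lies between 2.54 and 3.08 on the 4 arrays, Cish lies between -1.91 and -1.06, and the 2 probes of Pim2 fall into separate levels by in vitro prep.

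Cish, a SOCS family member that is a target of STAT5 and binds cytokine receptors, was lower in in vitro-derived cells. Its log2 level was 10.72 and 9.94 in in vitro preps 1 and 2, against 11.86 and 11.78 in thymic preps 1 and 2. Both in vitro preps lay below both thymic preps, and the in vitro preps lay further apart than the thymic ones. The log2 ratios on arrays 1 to 4 were -1.16, -1.91, -1.06 and -1.82, for a difference of -1.49 ± 0.24 (as SE, with n = 2 preps of each kind; 95% interval -2.10 to -0.87; limma adjusted p = 0.0051). The ratio depended on the in vitro prep: the fitted gap between in vitro preps 1 and 2 was 0.75, and only 0.503% of tested probes had a larger one. Without in vitro prep 1 the difference was -1.86, and without in vitro prep 2 it was -1.11. Each of these fits took its spread from the thymic preps alone, so neither tests the gap between the in vitro preps. Of all tested probes 98.0% had a higher difference than Cish.

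Socs1, which binds and inhibits Jak kinases and is a strong brake on cytokine signals in T cells, was higher in in vitro-derived cells, by 1.81-fold. Its log2 level was 13.65 and 13.72 in the in vitro preps, against 13.09 and 12.57 in the thymic preps. Here the in vitro preps nearly coincided and the thymic preps differed, and the kinds did not overlap. The ratios on arrays 1 to 4 were 0.53, 0.63, 1.096 and 1.17, and the difference was 0.86 ± 0.18 (SE, n = 2 preps of each kind; 95% interval 0.39 to 1.32; limma adjusted p = 0.013). The fitted gap between thymic preps 1 and 2 was 0.56, and 0.334% of tested probes had a larger gap between these preps. The difference was 1.13 without thymic prep 1 and 0.58 without thymic prep 2. Both fits took their spread from the in vitro preps alone, so neither tests the gap between the thymic preps.

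Socs2, an inhibitor best known for its control of growth hormone signals and a target of STAT5, had the widest difference of the members. Its log2 level was 9.60 and 10.17 in the in vitro preps, against 7.08 and 7.09 in the thymic preps. The thymic preps were alike and low, and both in vitro preps lay far above them. The ratios on arrays 1 to 4 were 2.54, 3.08, 2.67 and 2.93, and the difference was 2.81 ± 0.14 (SE, n = 2 preps of each kind; 95% interval 2.46 to 3.15; limma adjusted p = 1.1e-04). Of all tested probes 0.426% had a higher difference. With Agilent's processed signals, which use another background correction, the difference was 4.24. A second probe named Socs2, A_52_P84037, designed from another transcript and 24.3 kb away, was not tested because it was well above background on 3 in vitro and 0 thymic arrays. Its ratios were 0.06, 0.84, 0.21 and 0.98, higher in in vitro prep 2 than in prep 1. In vitro prep 1 had a log2 level of 6.39, close to 6.37 and 6.23 in the thymic preps, and in vitro prep 2 had 7.25. With a floor on the thymic signal, the mean of the in vitro preps was 1.40-fold that of thymic cells, a value that rests on in vitro prep 2. The floor was the dimmest signal that was still well above background on each array, or the probe's own signal where higher. The value is not a strict lower bound, since the in vitro channel was well above background on only 3 arrays.

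Socs3, the inhibitor of signals from the gp130 receptor family, was not called. Its log2 level was 12.44 and 12.79 in the in vitro preps, against 12.77 and 12.66 in the thymic preps, and the kinds overlapped. The ratios on arrays 1 to 4 were -0.28, -0.04, -0.19 and 0.12, and the difference was -0.10 ± 0.11 (SE, n = 2 preps of each kind; 95% interval -0.37 to 0.18; limma adjusted p = 0.50). A probe outside the set that the array design describes as Socs3, but places in the other orientation, gave -0.07 ± 0.07 (adjusted p = 0.39). With median centring in place of loess Socs3 turned to 0.68 and was called higher.

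**Figure D2:**
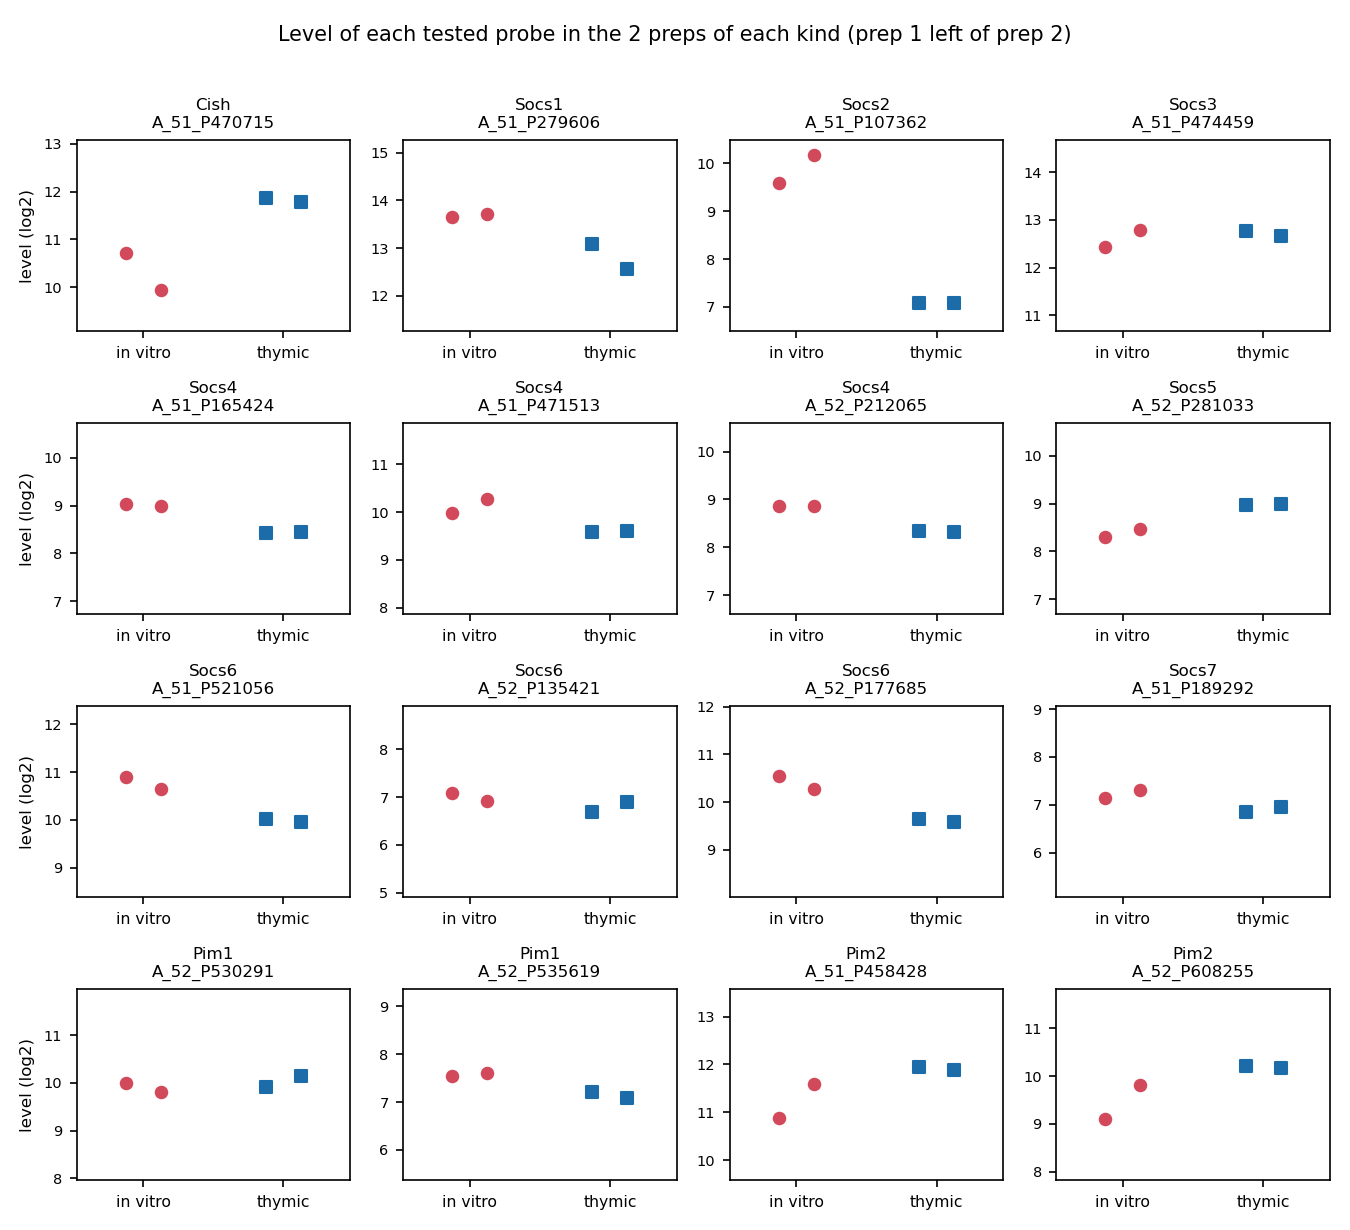
Log2 level of each tested member probe (vertical axis, log2 of normalized intensity) in the 2 in vitro preps and, to their right, the 2 thymic preps, 1 point per prep. Socs2 shows levels of 9.60 and 10.17 in the in vitro preps against 7.08 and 7.09 in the thymic preps, the thymic preps of Socs1 lie apart, and the in vitro preps of Cish and Pim2 lie apart; levels of different probes are not comparable with each other.

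Socs4 to Socs7 are longer members of the family, and less is known of the cytokines that induce them. Socs4 and Socs5 have been tied to the control of the epidermal growth factor receptor, and Socs6 and Socs7 to receptor tyrosine kinase and insulin signals. Socs4 had 3 probes, all called higher, with differences of 0.57 ± 0.06, 0.54 ± 0.06 and 0.53 ± 0.13 (SE, n = 2 preps of each kind; limma adjusted p = 0.0011, 0.0017 and 0.022). On the first of these, A_51_P165424, the log2 level was 9.03 and 8.99 in the in vitro preps, against 8.44 and 8.45 in the thymic preps. The ratios of this probe stayed between 0.53 and 0.60 on the 4 arrays, the narrowest range among the 16 tested member probes. The last, A_51_P471513, varied with the in vitro prep, with ratios of 0.30 and 0.37 for prep 1 and 0.75 and 0.69 for prep 2. It was 0.34 without in vitro prep 2, and its call was lost in 5 alternatives, among them the fits without thymic prep 1 (0.53, adjusted p = 0.052) and without thymic prep 2 (0.52, adjusted p = 0.10).

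Socs6 had 4 probes, of which 3 were tested. A pair that lay 0.1 kb apart and shares its target gave nearly the same result, 0.79 ± 0.09 and 0.79 ± 0.11 (SE, n = 2 preps of each kind; limma adjusted p = 0.0016 and 0.0032). On A_51_P521056 the log2 level was 10.90 and 10.64 in the in vitro preps, against 10.02 and 9.96 in the thymic preps. Arrays 1 to 4 gave ratios of 0.87, 0.66, 0.93 and 0.68, above 0 on every array and higher with in vitro prep 1. A further probe, A_52_P135421, 1.7 kb away and designed from another transcript, was well above background on 4 in vitro and 3 thymic arrays. It gave 0.20 ± 0.08 and was not called (limma adjusted p = 0.080), but was called in 4 alternatives, at 0.82 with Agilent's processed signals and at 0.29 without in vitro prep 1. The last, A_52_P389658, lay 107.8 kb from the first, beyond the 29.2 kb length of the RefSeq gene, and was not well above background in either channel of any array.

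Socs5 was the only longer member that was lower. Its log2 level was 8.30 and 8.47 in the in vitro preps, against 8.97 and 8.98 in the thymic preps, with no overlap. The ratios on arrays 1 to 4 were -0.74, -0.49, -0.73 and -0.40, and the difference was -0.59 ± 0.11 (SE, n = 2 preps of each kind; 95% interval -0.86 to -0.32; limma adjusted p = 0.0073). The call was lost with median centring, at -0.15 (adjusted p = 0.27).

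Socs7 was higher by a small margin. Its log2 level was 7.15 and 7.30 in the in vitro preps, against 6.84 and 6.96 in the thymic preps. Arrays 1 to 4 gave ratios of 0.41, 0.38, 0.29 and 0.23, and the difference was 0.33 ± 0.07 (SE, n = 2 preps of each kind; limma adjusted p = 0.014). The kinds did not overlap, but the call was lost without thymic prep 1 (0.26, adjusted p = 0.18) and without thymic prep 2 (0.39, adjusted p = 0.059), and the value was 0.86 with Agilent's processed signals.

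Pim1, a kinase induced by STAT signals, had 2 probes that gave different results. The probe for the coding transcript, A_52_P530291, had log2 levels of 9.9997 and 9.81 in the in vitro preps, against 9.90 and 10.14 in the thymic preps, which overlapped. Its ratios on arrays 1 to 4 were 0.04, -0.08, -0.17 and -0.27, and the difference was -0.12 ± 0.09 (SE, n = 2 preps of each kind; 95% interval -0.35 to 0.11; limma adjusted p = 0.33). The other, A_52_P535619, lay 2.1 kb away and is placed by the array design on the strand opposite to Pim1, so that, as placed, it would read RNA of the other strand. Its level was 7.55 and 7.61 in the in vitro preps, against 7.21 and 7.08 in the thymic preps, and its difference was 0.44 ± 0.07 (limma adjusted p = 0.0039). Both in vitro preps lay above both thymic preps there. This call was lost without thymic prep 2 (0.39, adjusted p = 0.069) and when the background model was fitted on all spots (0.34, adjusted p = 0.056), and with median centring the probe for the coding transcript turned to 0.44 and was called higher.

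Pim2, a related kinase that supports the survival of lymphoid cells, was lower on both of its probes. On A_51_P458428 the log2 level was 10.88 and 11.59 in the in vitro preps, against 11.95 and 11.89 in the thymic preps. In vitro prep 1 was low, and in vitro prep 2 was close to the thymic preps without overlapping them. The ratios on arrays 1 to 4 were -1.03, -0.37, -1.001 and -0.33, and the difference was -0.68 ± 0.21 (SE, n = 2 preps of each kind; 95% interval -1.23 to -0.14; limma adjusted p = 0.045). The other probe, A_52_P608255, 0.5 kb away, gave -1.11, -0.41, -1.02 and -0.40, and a difference of -0.73 ± 0.21 (limma adjusted p = 0.036). These calls were near the threshold: they were lost in 8 and 7 alternatives, among them the fits without thymic prep 1 (-0.67 and -0.71) and without thymic prep 2 (-0.70 and -0.76), and with median centring the differences were -0.0026 and -0.19. Without in vitro prep 1 they were -0.35 and -0.40, and without in vitro prep 2 they were -1.01 and -1.06. A further probe that the array design describes as Pim2 under another name gave -0.72 ± 0.22 (limma adjusted p = 0.041). Its placement overlaps that of A_51_P458428, so it does not read a separate stretch.

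The spread between preps was thus uneven among the members. Over all tested probes the SD of the difference between the in vitro preps was 0.19, and between the thymic preps 0.11. The gap of Cish between in vitro preps 1 and 2 was 0.75 and that of the Pim2 probes was -0.66 on both, which 0.782% and 0.804% of tested probes exceeded in size. Cish was lower in in vitro prep 2 and Pim2 in in vitro prep 1, so the in vitro prep with the lower level was not the same for these genes. For Socs2 the gap was -0.40, exceeded by 4.83% of probes.

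**Figure D3:**
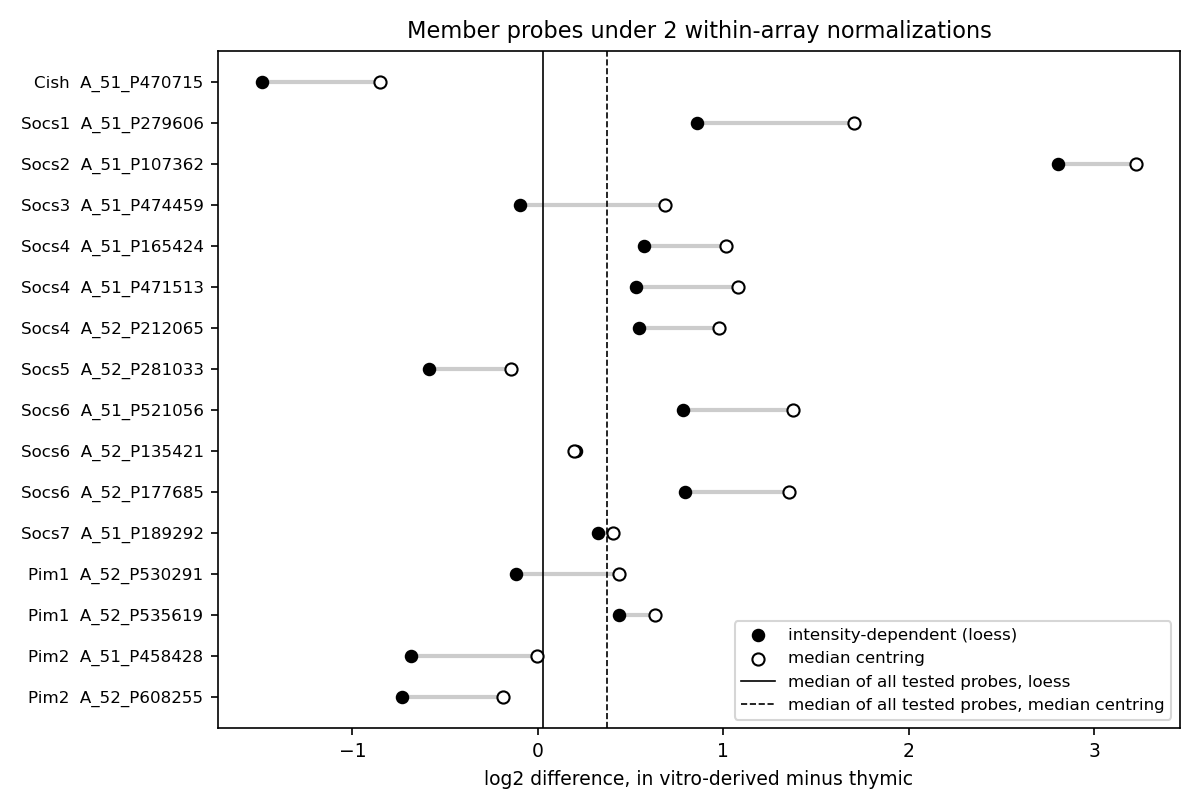
Log2 difference, in vitro-derived minus thymic, of each tested member probe (vertical axis lists the probes) with loess (filled) and with median centring (open), and vertical lines at the median of all tested probes under each. Median centring moves the members up by unequal amounts, except Socs6 on A_52_P135421, and Socs2 stays the highest and Cish the lowest under both.

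The choice of normalization moved most members up, by unequal amounts. With median centring in place of loess, the median of all tested probes lay at 0.37, against 0.03 with loess, and 83.6% of calls were in the higher direction, against 51.0%. Relative to that shifted median Socs2 was at 2.86, Socs1 at 1.33, the Socs6 pair at 1.00 and 0.98, the Socs4 probes at 0.65, 0.71 and 0.61, Socs3 at 0.31, Socs5 at -0.52, the Pim2 probes at -0.37 and -0.56, and Cish at -1.22. Socs7 lay at 0.034, close to the median of all probes, the Pim1 probe for the coding transcript at 0.068, the other Pim1 probe at 0.26 and Socs6 on A_52_P135421 at -0.17. Across the 20 alternatives run, 7 of the 16 tested member probes kept the same call in each one that gave them a value: Cish, Socs1, Socs2 on A_51_P107362, Socs4 on A_51_P165424 and A_52_P212065, and the Socs6 pair. Among these alternatives, the fits that left out a prep took their spread from the other kind alone. They therefore do not test the gaps of Cish and Socs1 between preps.

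Other genes of cytokine signalling, not all of them of the Jak and STAT pathway, were read from lists, 1 probe standing for each gene. Of 24 cytokine receptor genes 9 were called higher and 12 lower, against 26.7% and 25.3% of all 19154 genes (52% in either direction), with a median difference of -0.16 against 0.03 for all genes. Il2ra, the high-affinity IL-2 receptor chain and a target of STAT5, was 10.8-fold higher (3.44 ± 0.26, SE, n = 2 preps of each kind; limma adjusted p = 3.7e-04), and Ifngr1, an interferon gamma receptor chain, 8.57-fold higher (3.10 ± 0.17; adjusted p = 1.6e-04). The other 3 probes of Il2ra were also called higher, at 1.52 to 2.11. Il18r1, the IL-18 receptor, was 6.01-fold lower (-2.59 ± 0.18; adjusted p = 2.9e-04) and Il2rb, the IL-2 and IL-15 receptor beta chain, 5.25-fold lower (-2.39 ± 0.14; adjusted p = 1.7e-04). Il2rg, the common gamma chain, was 2.96-fold lower (-1.57 ± 0.07), and Il7r, the IL-7 receptor alpha chain, differed by -0.98 ± 0.12, a call that was lost with median centring (-0.23). The other probes of Il7r gave -0.75 and -0.07, and 1 of them was called lower. Chains of receptors for the common gamma chain cytokines thus lay on both sides of 0.

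Of the 11 Jak and STAT genes 10 were tested, and 9 were called lower and 0 higher, with a median difference of -0.81. Jak1 and Jak3, the kinases on the common gamma chain receptors, differed by -1.29 ± 0.11 and -0.83 ± 0.06, and Stat3 by -0.51 ± 0.06 (SE, n = 2 preps of each kind; limma adjusted p = 5.3e-04, 4.2e-04 and 0.0017). Jak2, the kinase of many homodimeric receptors, gave -0.27 ± 0.09 (adjusted p = 0.048), a call that was lost in 12 alternatives and turned in 1. Stat5b, a STAT activated by IL-2 and IL-7, was not called on the brightest of its 3 probes (0.30 ± 0.10; adjusted p = 0.061), while 1 other probe was called lower at -1.001. Stat5a was not tested because its spot on array 3 was marked, and its ratios on arrays 1, 2 and 4 were 0.33, 0.20 and 0.22. With median centring Jak2 turned to 0.44 and Stat3 to 0.23, both called higher, Stat5b moved to 1.25 and was called higher, and Jak1 lost its call at -0.25 (adjusted p = 0.051).

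Of 18 other inhibitors of cytokine signals 17 were tested, with 3 called higher, 7 lower and a median of -0.20. The ubiquitin ligase gene Cbl was higher by 1.04 ± 0.07 (SE, n = 2 preps of each kind; limma adjusted p = 2.6e-04) and Pias1, an inhibitor of STAT signals, by 0.77 ± 0.10 (adjusted p = 0.0022). The other probe of Pias1 gave 0.05 and was not called. Usp18, which restrains interferon receptor signals, was 5.76-fold lower (-2.53 ± 0.10; adjusted p = 7.0e-05). Ptpn6, the phosphatase SHP-1, differed by -0.98 ± 0.06 (adjusted p = 2.1e-04) on its brightest probe, which median centring brought to -0.052 with no call. Its other probes gave -0.52 and -0.04, and 1 of them was called lower. Of 7 genes listed for the ligase that the SOCS box recruits and for related ligases, 2 were called higher and 1 lower, with a median of 0.01. Rnf7, a RING subunit, gave 0.64 ± 0.06 (adjusted p = 8.0e-04) on its brightest probe, while its other probe gave 0.15 and was not called. Tceb1, the elongin C gene, gave 0.31 ± 0.08 (adjusted p = 0.028), a call lost without thymic prep 1 (0.27), thymic prep 2 (0.35) or in vitro prep 2 (0.22). Cul2 gave -0.24 ± 0.08 (adjusted p = 0.055), and Rbx1, another RING subunit, -0.38 ± 0.07 (adjusted p = 0.0096) on its brightest probe, while another of its probes was called higher at 0.51. The call of Rbx1 was lost without thymic prep 1 (-0.41) or thymic prep 2 (-0.35), and with median centring it turned to 0.68.

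Among 13 other targets of STAT5, 5 were called higher and 4 lower, with a median of 0.10. Bcl2l1, the survival gene that encodes Bcl-xL, was 2.44-fold higher (1.29 ± 0.06, SE, n = 2 preps of each kind; limma adjusted p = 9.7e-05) beside Il2ra. Ccnd2, the cyclin D2 gene, was 8.08-fold lower (-3.02 ± 0.08; adjusted p = 2.6e-05) and Lta, a lymphotoxin gene, 5.32-fold lower (-2.41 ± 0.11; adjusted p = 9.0e-05). The survival gene Bcl2 differed by -0.67 ± 0.11 (adjusted p = 0.0054), and Pim3, another Pim kinase gene, by -0.06 ± 0.12 (adjusted p = 0.69), and with median centring they turned to 0.24 and 0.54. Known targets of STAT5 thus lay on both sides of 0, as Socs2 and Cish did among the members.

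**Figure D4:**
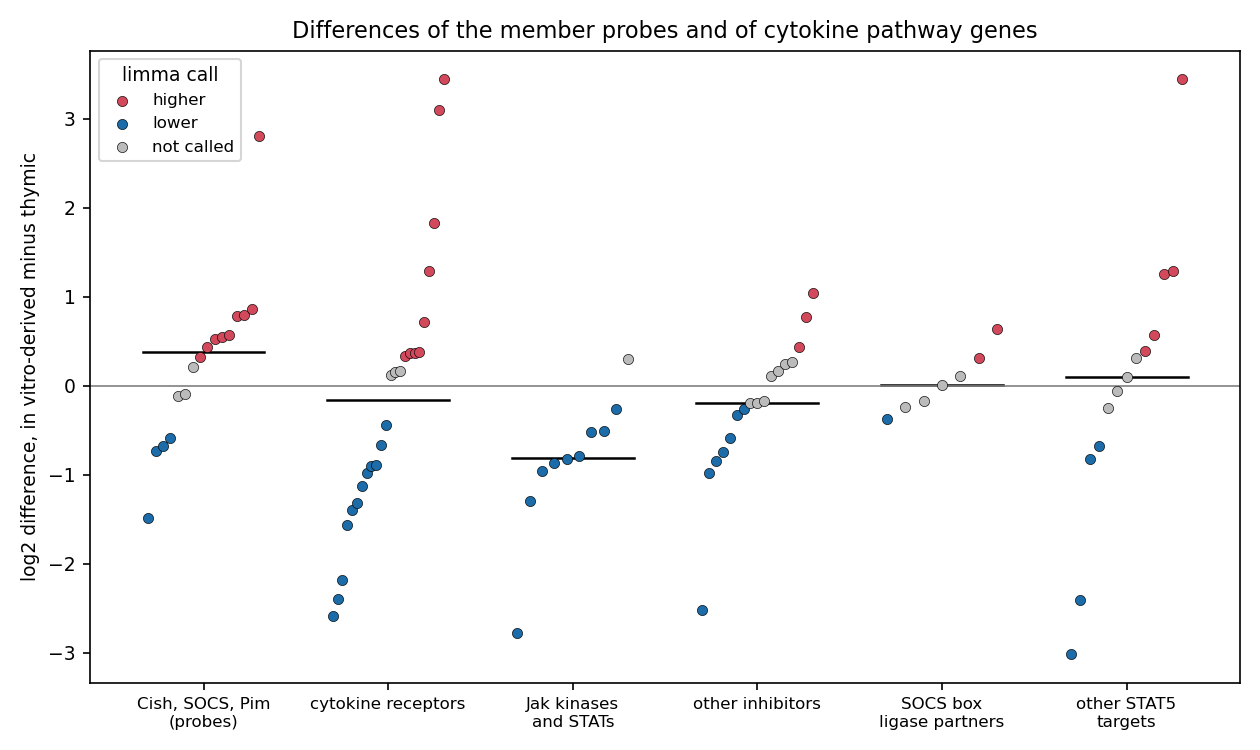
Log2 difference, in vitro-derived minus thymic (vertical axis), of the tested member probes and of every tested gene in 5 pathway lists, 1 point per probe or gene, with the call as colour and the median as a line. The Jak and STAT list lies mostly below 0, with 9 of 10 genes called lower and 0 higher, while the receptor list and the STAT5 target list spread widely on both sides of 0.

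Markers of other cells were read in the same fit. Of 11 stromal genes 8 were tested, and 6 were called higher and 0 lower, with a median of 2.92, and their summed linear level was 13549 and 16507 in the in vitro preps, against 4298 and 4151 in the thymic preps. Pdgfra was not well above background in either kind on any array, Dcn was above it on 0 in vitro and 1 thymic array, and Lum on 1 in vitro and 0 thymic arrays. The stromal level was higher in in vitro prep 2 than in prep 1, as were, among others, the levels of Socs2, Socs3, Socs5, Pim2 and Socs4 on A_51_P471513, while those of Cish and the Socs6 pair were lower in in vitro prep 2. Of the 6 genes listed as markers of CD8 T cells, all were well above background in every channel, and 5 were called lower and 0 higher. Their summed level was 274364 and 237503 in the in vitro preps, against 409939 and 413396 in the thymic preps. These genes were thus detected in both kinds. Cd8a and Cd8b1, the genes of CD8 itself, differed by -0.76 ± 0.10 and -0.95 ± 0.21 (SE, n = 2 preps of each kind, limma adjusted p = 0.0028 and 0.014). The other Cd8b1 probe gave -0.20 and was not called. Cd3d was the gene of this list that was not called, at 0.02 ± 0.07 (limma adjusted p = 0.86). The summed level of 6 B cell genes was 3305 and 2941 in the in vitro preps, against 3607 and 3601 in the thymic preps, with Blnk called higher (1.24), Cd79b called lower (-0.43) and 4 not called. That of 6 myeloid genes was 1222 and 1310 in the in vitro preps, against 1262 and 1285 in the thymic preps. Of these genes 3 were called higher, among them Tyrobp (0.83) and Itgam (0.64), and 2 lower, among them Lyz2 (-1.53). Itgam was well above background on 4 in vitro and 0 thymic arrays. For 4 erythroid genes the summed level was 920 and 940 in the in vitro preps, against 898 and 817 in the thymic preps, with 1 called higher and 0 lower. For 3 NK cell genes it was 732 and 1281 in the in vitro preps, against 637 and 606 in the thymic preps, with 1 called higher and 1 lower. The gene called lower, Klra8, was well above background on 0 in vitro and 4 thymic arrays. Ncr1, a defining gene of NK cells, was well above background on 0 arrays in either channel.

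The genes whose 4 ratios were nearest to those of the highest and the lowest called member were found among 19144 genes, by the Euclidean distance over the 4 arrays. For Socs2 these were Slc5a9, a solute carrier gene (distance 0.14), Ect2, a regulator of cytokinesis (0.17), and Col3a1, a collagen gene of the stromal list (0.19). For Cish they were Hsph1, a heat shock protein gene (0.19), F13a1, a coagulation factor gene (0.22), and Txnip, which binds thioredoxin (0.28). A distance over 4 arrays of 2 preps each describes likeness in this experiment only.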

How the data were processed

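Total RNA of 2 preps of in vitro-derived and 2 preps of thymic CD8+ cells was hybridised on 4 2-colour arrays, in vitro-derived RNA in Cy5 and thymic RNA in Cy3, per the labels. The authors deposited scanner files that hold spot intensity (mean signal and median local background, with processed signals) that Agilent Feature Extraction wrote (version 9.5.1.1 in the file headers). Their deposited series table has log10 values of the Cy5 to Cy3 ratio, whose scale and direction were found against the scanner's own log ratio (correlation of at least 0.9999 on each array). Each of its columns had a median of 0 and listed 6110 to 7222 probes at exactly 0, 1 member probe on each array; the centring behind that table is unknown.

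Here limma 3.58.1 in R 4.3.3 corrected background by normexp (offset 50), after spots marked as outliers or non-uniform (133 to 187 per array) were left out, and applied loess within arrays with control spots at weight 0. Levels per channel also had Aquantile normalization. Spots of a probe were averaged, and 27224 probes were tested. The 4 ratios were turned into 2 prep values per kind and tested with lmFit and eBayes (2 residual and 3.19 prior degrees of freedom), with Benjamini-Hochberg adjustment over all 27224 probes and calls at an adjusted p under 0.05. Errors are SE of that fit. Gene names of other genes were updated through RefSeq accessions (22951 probes matched, 5141 names changed); a gene was represented by its brightest tested probe. Probe coordinates are left out, since no label or header names the array design's build.

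Every member probe was named, with the 3 genes nearest to the highest and to the lowest called member probe, and from each pathway list the 2 highest and 2 lowest genes plus a fixed set of receptors, kinases and STATs with Pim3 and Bcl2; the values of some of these genes are not reported here. The members and lists were chosen with earlier results of these data known. Each prep number names a prep of its kind and pairs nothing in the labels.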

Additional observations from a re-analysis of the deposited data

How the results depend on the processing

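Over 20 alternatives, 273 of 307 values of the tested member probes kept their call or stayed uncalled, 28 lost the call, 4 gained one and 2 turned. For the named pathway genes 463 of 500 did so, 24 lost the call, 6 gained one and 7 turned. A change of sign where neither value was called was counted as kept. Socs3 moved so to 0.033 with Agilent's processed signals and to 0.039 without in vitro prep 1. Pim1 on A_52_P530291 moved so to 0.16 as a mean over probes. The values that turned did so with median centring, at 0.68 for Socs3, 0.44 for Pim1 on A_52_P530291, 0.44 for Jak2, 0.23 for Stat3, 0.68 for Rbx1, 0.24 for Bcl2 and 0.54 for Pim3, or as a mean over probes, at 0.044 for Rbx1 and -0.23 for Stat5b.

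Of the 16 tested member probes 13 were called. With the background model fitted on all spots 8 were called, 2 of them lower (4 with marked spots left out first), beside 10134 of all 27224 probes. With marked spots kept 8 were called, 2 of them lower, beside 10163 of all 27293 probes. Calls over all probes thus fell too, from 14219. The count of member probes called lower was 2 with Agilent's processed signals, 2 with the authors' series table and 1 with median centring. Over all probes, 14004, 13735 and 19263 were called in either direction in these settings. With 1 probe per gene, and with the mean over the probes of a gene, 8 of 10 genes were called and 5 were higher, against 9975 and 9910 of all 19154 genes called. These are counts of genes, while the 9 higher probes belonged to 6 genes. Pim1 was the gene not called higher: its brightest probe gave -0.12, and the mean over its probes 0.16 (limma adjusted p = 0.067). When arrays or preps were left out, 8 to 14 member probes were called, 6 to 10 higher and 2 to 4 lower, with 8161 to 14074 of all probes and 40 to 56 pathway genes called, against 14219 and 51. The low end came from the fits without thymic prep 1 (9 member probes, 2 lower; 8712 of all probes) or thymic prep 2 (8, 2 lower; 8161), where the lone thymic prep is assumed to vary like the in vitro ones. In the fits without an in vitro prep, the lone in vitro prep is likewise assumed to vary like the thymic ones. Where an array was left out, its ratio was fitted from the other 3.

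With prep number as a replicate block, 13 member probes, 14667 of all probes and 53 pathway genes were called, and Stat5b gained a call at 0.30 (limma adjusted p = 0.036). The deviations of preps with the same number correlated at 0.13 over all tested probes, and the labels do not pair the preps. The calls of Pim2, Socs7, Socs4 on A_51_P471513 and Pim1 on A_52_P535619 were lost in 3 to 8 alternatives. The cause of these changes was not tested. Dim probes limit the second Socs2 probe and 2 of the Socs6 probes, which lie at or near background in at least 1 channel. Socs7, Pim1 on A_52_P535619 and Socs2 on A_51_P107362 were well above background throughout, yet their size also moved with the processing. They read 0.86, 0.86 and 4.24 with Agilent's processed signals, against 0.33, 0.44 and 2.81.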
